A study of Homo sapiens with 12 samples.

Results

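The genes described here encode the core machinery that copies DNA: origin recognition and licensing factors, the replicative helicase, the DNA polymerases and primase, the sliding clamp and its loader, the proteins that bind single strands and join new strands, and the enzymes that supply nucleotides. The list holds 43 genes named for these roles, and all 43 were listed in both expression tables, among 29657 genes in SCC15 and 31055 genes in SCC25. Total RNA was sequenced from 2 established cell lines of oral squamous cell carcinoma, SCC15 and SCC25, both labelled WT, after 24 h with squamocin or with the solvent DMSO. Squamocin is an annonaceous acetogenin, a plant lipid known as an inhibitor of mitochondrial complex I, and the labels name the treatment ACGs. Each of the 4 groups held 3 libraries, and nothing in the labels says whether these came from separate cultures, so p-values measure the spread between these libraries, which may be technical. The comparison in each line asks which transcripts changed with squamocin.

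Replication starts where the origin recognition complex, CDC6 and CDT1 load MCM2 to MCM7 onto DNA as an inactive ring during G1. CDC45 and the GINS complex then turn the ring into an active helicase in S phase, and polymerase alpha with primase, polymerase delta and polymerase epsilon copy the opened strands behind it. Many of these genes are classical targets of the E2F transcription factors, so their transcripts rise towards S phase and are low in resting cells. In bulk libraries such as these, a shift in cell cycle phases and a change of a transcript per cell cannot be told apart. By flow cytometry the paper reported arrest in S and G2/M phases for SCC15 with squamocin, and in S phase alone for SCC25. How those phases bear on the transcripts was not tested.

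The libraries held 16665563 to 22748845 reads assigned to genes. The third squamocin library of SCC15 stood apart from the others of its group, with a chi-square per degree of freedom of 56.8 and 64.1 against them, while all other pairs of libraries of 1 group gave 1.67 to 9.95. Libraries were compared on the scale of the deposited size factors, and the median gene then changed by 0.012 log2 units in SCC15 and by -0.015 in SCC25. With equal library totals in place of those factors the median gene moved to -0.50 in SCC15 and -0.23 in SCC25, so the direction of small changes depends on the scaling. Of the squamous markers, KRT5, TP63 and DSG3 were high in SCC25 but reached only 13.1, 22.7 and 2.56 normalized counts in any SCC15 library, against at least 344.9 for KRT14 and 2375 for SFN in any library. The summed level of the 6 squamous markers was 3291 to 3433 normalized counts in SCC15 with DMSO and 4637 to 8326 with squamocin, and 16333 to 16479 and 27682 to 28890 in SCC25. Single markers did not all follow the sum. In SCC25 every squamocin library lay above the DMSO libraries for SFN, KRT14, KRT6A and TP63, and below them for KRT5 and DSG3. In SCC15 it lay above for SFN and KRT14 and below for KRT6A, and the others overlapped. The 3 endothelial markers summed to 158 to 178 normalized counts with DMSO and 66.1 to 77.1 with squamocin in SCC15, and to 231 to 294 and 19.8 to 36.6 in SCC25. The 5 fibroblast markers summed to 274 to 320 and 204 to 235 in SCC15 and to 764 to 810 and 1073 to 1228 in SCC25, and the 4 leukocyte markers reached at most 34.2 in any library, with PTPRC at most 3.95. Of the fibroblast markers in SCC25, COL1A1 and LUM were higher in every squamocin library and PDGFRB was lower in every one. The part of these marker levels in the results was not tested.

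Most transcripts of the replication machinery were lower with squamocin in SCC25. Of the 43 genes, 34 were lower and 5 were higher than with DMSO (limma on log2 of the normalized count + 1, adjusted p below 0.05 over 16539 genes), beside 38.5% of all genes tested lower and 38.3% higher. The median change of the 43 genes was -0.91 log2 units, against -0.015 for all genes. Every squamocin library lay below every DMSO library for 34 genes, beside 39.6% of all genes, and above for 6, beside 39.4%. A fall by over 1 log2 unit was called for 18 genes, beside 17%, and a rise of that size for 1, beside 13.9%. The 5 largest falls were those of the ring genes MCM2, MCM3, MCM6, MCM5 and MCM7, with MCM2 at 8.46% of its DMSO level, and the 4 genes that did not pass were ORC3, ORC5, GINS1 and RRM2. With equal library totals 35 genes were lower and 2 higher, beside 47.6% and 30.3% of all genes. Summed over all 43 genes, the normalized count was 72068 to 72902 in the DMSO libraries and 35229 to 37117 in the squamocin libraries.

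In SCC15 the response was smaller and more mixed. Of the 43 genes, 20 were lower and 5 were higher, beside 30% of all 15902 genes tested lower and 30.9% higher (limma, the same threshold), and the median change was -0.29 log2 units against 0.012 for all genes. The groups did not overlap for 22 genes with squamocin below, beside 34.9% of all genes, and for 8 with squamocin above, beside 35.7%. Only FEN1 and PRIM1 fell by over 1 log2 unit, 2 genes beside 14.6% of all, and 0 rose by that much, beside 12.6%. FEN1, PRIM1, GINS1 and MCM2 fell most, and POLD2, CDT1 and RFC4 rose most. The count of lower genes ranged from 11, without the second DMSO library, to 26, without the third squamocin library, and was 13 without the first squamocin library and 12 without the first or the third DMSO library. The genes lower in every one of these fits were MCM2, MCM3, MCM4, MCM6, MCM10, GINS1, GINS3, GINS4, POLA1, PRIM1 and FEN1, 11 in all, and CDT1, POLD2 and RFC4 were higher in every one. Equal library totals gave 36 lower and 2 higher genes, beside 51% and 14.6% of all genes. Of the genes not called on the deposited scale, all but RFC1 and RPA3 were then called lower. The summed normalized count of the 43 genes was 52321 to 53022 with DMSO and 43752 to 51640 with squamocin.

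**Figure D1:**
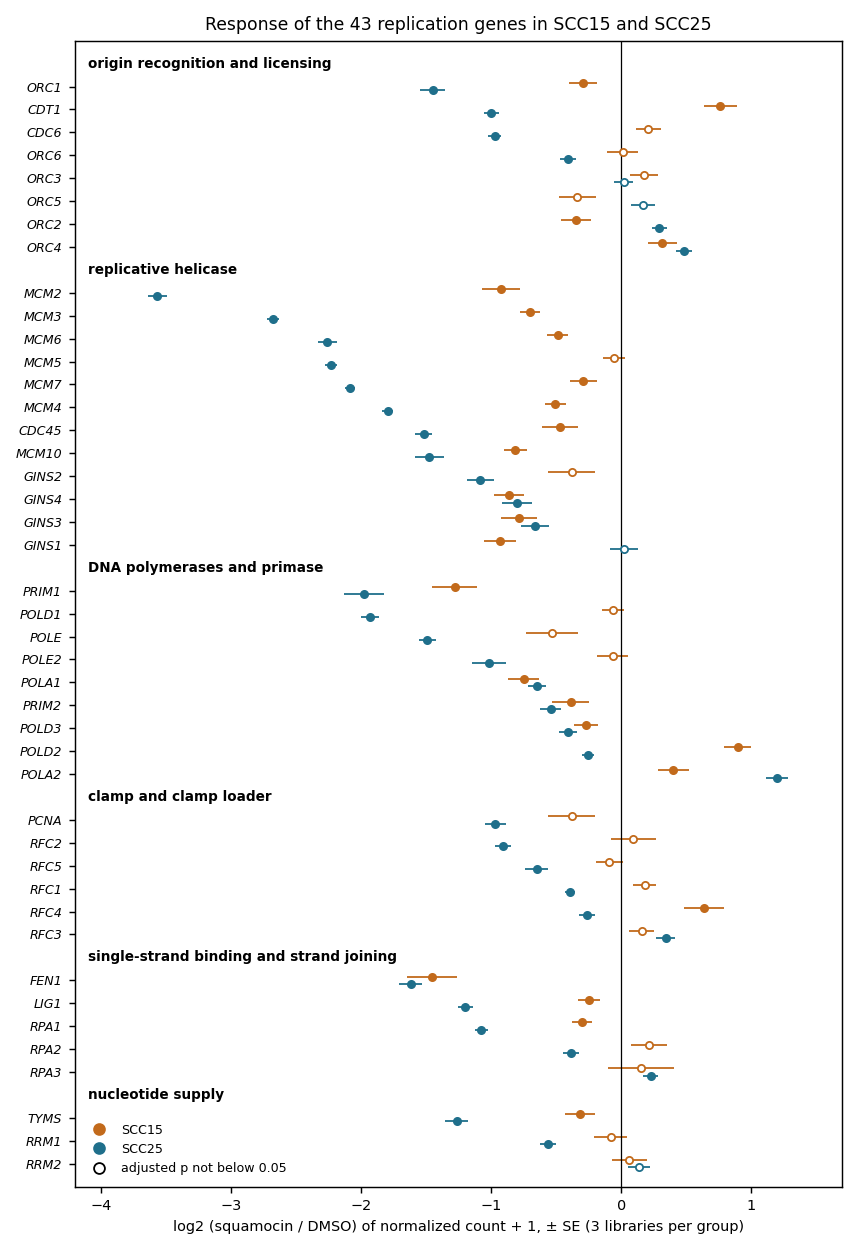
Change of each of the 43 genes with squamocin, as the log2 ratio of the normalized count + 1 to DMSO (horizontal axis) with its standard error from 3 libraries per group, for SCC15 (orange) and SCC25 (blue), grouped by role and ordered by the SCC25 value; open points did not pass an adjusted p of 0.05. MCM2 in SCC25 lies farthest left at -3.56 and POLA2 in SCC25 farthest right at 1.20; with equal library totals the SCC15 values of ORC4 and POLA2 turn to -0.18 and -0.096.

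Promoters of these genes were read from RefSeq, as 250 bases before to 50 bases after each gene's start on GRCh38.p14, and 37 of the 43 genes matched by symbol. The E2F letters searched, on both strands, were TTTCCCGC, TTTCGCGC, TTTGCCGC and TTTGGCGC. They stood in 18 of the 37 promoters, or 48.6%, against 3.33% of 27305 promoters of that length. The CHR letters TTTGAA and TTCGAA, known from late cell cycle genes, stood in 2 of the 37, or 5.41%, against 16.6% of all promoters. The E-box CACGTG, to which MYC can bind, stood in 4, or 10.8%, against 7.43%. The stretches below run from 200 bases before the RefSeq start to the outermost start of the gene in RefSeq or in the expression tables. They therefore hold no base of the transcript, and capitals mark the E2F letters. Another match of MCM3, at -4 from its RefSeq start, lies past the end of the printed stretch. MCM6, MCM3 and PCNA are shown as genes with such letters, and MCM10 as a gene without them. MCM6, MCM3 and MCM10 fell in both lines, and PCNA was called lower in SCC25 and, on the deposited scale, not in SCC15.
MCM6, chr2:135876444-135876643, - strand: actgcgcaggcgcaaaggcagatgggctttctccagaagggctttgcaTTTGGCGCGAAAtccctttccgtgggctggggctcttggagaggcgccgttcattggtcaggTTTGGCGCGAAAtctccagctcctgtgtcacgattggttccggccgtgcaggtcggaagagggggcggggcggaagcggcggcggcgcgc
MCM3, chr6:52284882-52284942, - strand: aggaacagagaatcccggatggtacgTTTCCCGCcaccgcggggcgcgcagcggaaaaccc
PCNA, chr20:5126627-5126822, - strand: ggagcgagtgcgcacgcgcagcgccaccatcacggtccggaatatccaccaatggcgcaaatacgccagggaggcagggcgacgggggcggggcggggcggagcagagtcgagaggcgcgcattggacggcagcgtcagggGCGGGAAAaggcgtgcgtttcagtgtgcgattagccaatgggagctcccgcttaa
MCM10, chr10:13161358-13161553, + strand: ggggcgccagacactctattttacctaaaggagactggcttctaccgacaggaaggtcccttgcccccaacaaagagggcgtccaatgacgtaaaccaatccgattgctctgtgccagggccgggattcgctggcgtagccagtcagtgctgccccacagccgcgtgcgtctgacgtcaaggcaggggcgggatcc

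The MCM6 stretch held 4 matches in 2 places, since TTTGGCGC on the given strand overlaps TTTCGCGC on the other strand in each. Genes with and without the letters overlapped in their response. In SCC25 the 18 genes with a match had a median change of -1.01 log2 units and ranged from -3.56 to 1.20, and the 19 without ranged from -1.98 to 0.48 with a median of -0.56. In SCC15 the medians were -0.35 and -0.091. In SCC25, 14 of the 18 with a match and 15 of the 19 without were lower, beside 38.5% of all genes. In each of these groups 2 were higher, beside 38.3%. MCM4, MCM5, GINS4, POLD3, RPA2 and RPA3 had no promoter matched by symbol and are in neither group. A gene without these exact letters may still bind E2F, which was not tested. A match is a description of the sequence and not of binding.

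MCM2 to MCM7 form the ring of the helicase that unwinds DNA at the fork, and all were lower in SCC25, beside 38.5% of all genes. MCM2 (chr3:127598223-127622436) had 3385, 3491 and 3512 normalized counts in the DMSO libraries of SCC25 and 304, 258 and 318 with squamocin. The log2 change was -3.56 ± 0.072 (SE, n = 3 per group, limma adjusted p = 6.53e-13), and of the 16539 genes tested only 164 had a lower value. In SCC15 the same gene had 2457, 2425 and 2468 normalized counts with DMSO and 1405, 1499 and 1017 with squamocin, a change of -0.93 ± 0.15 (limma adjusted p = 0.00133). The groups did not overlap in either line, and the third squamocin library of SCC15 was the lowest. Reads of MCM2 may include some of TPRA1, a gene on the other strand that overlaps it.

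MCM3 (chr6:52264009-52284881) fell from 3964, 3935 and 3977 normalized counts with DMSO to 618, 627 and 611 with squamocin in SCC25, a change of -2.68 ± 0.044 log2 units (limma adjusted p = 1.22e-13). The SCC15 libraries held 2006, 1990 and 1997 with DMSO and 1197, 1203 and 1292 with squamocin, a fall by 0.70 ± 0.077 (limma adjusted p = 0.000276). Both lines showed tight replicates and a clear gap between the groups.

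MCM5 (chr22:35400063-35425430) was called lower in SCC25 and, on the deposited scale, not in SCC15. It had 4108, 3985 and 4190 normalized counts with DMSO and 891, 864 and 862 with squamocin in SCC25, a change of -2.23 ± 0.045 log2 units (limma adjusted p = 5.63e-13). SCC15 libraries had 2432, 2257 and 2474 with DMSO and 2241, 2442 and 2223 with squamocin, and the change of -0.053 ± 0.085 did not pass (limma adjusted p = 0.607). The SCC15 groups overlapped on this scale, and with equal library totals the change was -0.55 and called lower.

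MCM7 (chr7:100092728-100101940), the ring gene with the highest count in SCC25, had 8279, 8484 and 8229 normalized counts with DMSO and 1942, 1923 and 2016 with squamocin in SCC25, a change of -2.09 ± 0.040 log2 units (limma adjusted p = 3.61e-13). In SCC15 the values were 3971, 3796 and 3752 with DMSO and 2809, 3110 and 3539 with squamocin, a change of -0.29 ± 0.10 (limma adjusted p = 0.0424). That call was lost when any of 5 of the 6 libraries was left out. MCM6 and MCM4 fell by 2.26 and 1.79 log2 units in SCC25 and by 0.49 and 0.51 in SCC15.

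**Figure D2:**
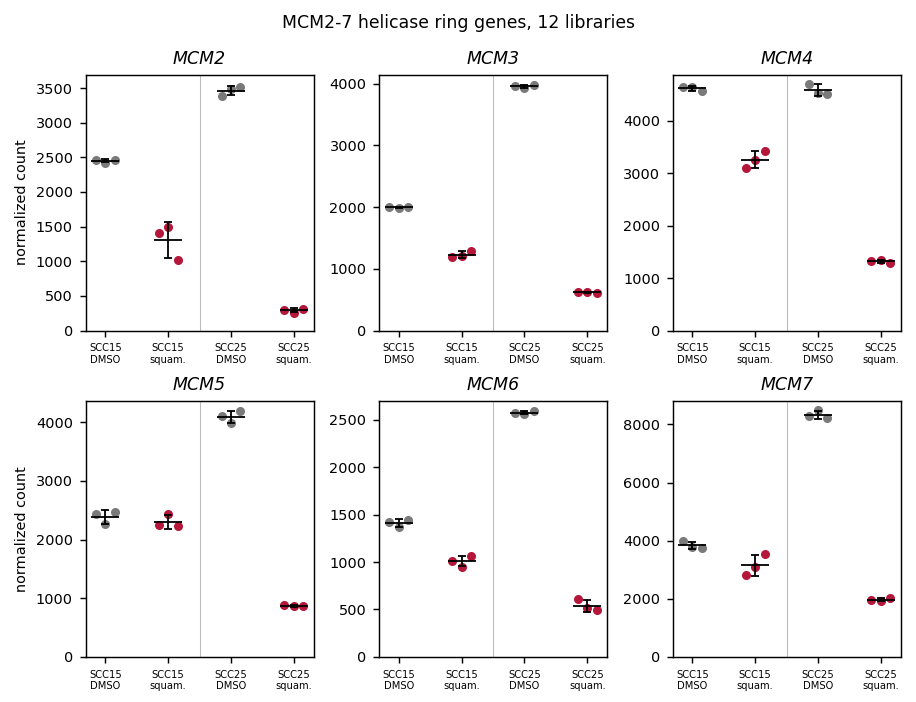
Normalized counts (vertical axes, from 0) of the 6 ring genes MCM2 to MCM7 in each of the 12 libraries, by cell line and treatment; points are libraries, grey for DMSO and red for squamocin, and the black dash and bar are the mean and SD of 3. In SCC25 every squamocin library lies far below every DMSO library, from 258 to 318 against 3385 to 3512 for MCM2, while the SCC15 groups of MCM5 overlap.

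The order of the ring genes by level was not the same with squamocin, and it is given here as a description. Per kilobase of the canonical transcript, DMSO libraries of SCC25 had a mean of 3377 ± 54.8 normalized counts (SD, n = 3) for MCM7, followed by MCM3 with 1290, MCM5 with 1184, MCM4 with 1128, MCM2 with 1008 and MCM6 with 686. MCM5 and MCM4 were not separated there, since their libraries ran from 1152 to 1212 and from 1110 to 1160. With squamocin the order per kilobase became MCM7 with 795, MCM4 with 325, MCM5 with 252, MCM3 with 202, MCM6 with 144 and MCM2 with 85.3. The highest level was then 9.31 times the lowest, against 4.92 times with DMSO. In SCC15 the same ratio was 4.13 with DMSO and 4.76 with squamocin, where MCM6 was the lowest in both groups.

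Shares of the 43 genes' summed count do not depend on the scaling between libraries. The 6 ring genes made up 37.3% ± 0.23 (SD, n = 3) of that sum with DMSO and 15.5% ± 0.50 with squamocin in SCC25. In SCC15 they made up 31.7% ± 0.64 and 26.2% ± 1.63, and the libraries did not overlap in either line. All other roles took a larger share in SCC25 with squamocin, the polymerases 23.4% against 18.0% and the clamp and its loader 19.96% against 13.9%. These are means of 3 libraries, and shares add up to the whole, so a lower share of the ring goes with a higher share of the rest.

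The remaining helicase factors turn the ring on. MCM10, which helps to activate the assembled helicase, fell by 1.48 ± 0.11 log2 units in SCC25 and by 0.81 ± 0.090 in SCC15, and CDC45, which holds the ring in its active form, fell by 1.52 ± 0.067 and 0.47 ± 0.14 (all limma, adjusted p at most 0.0197). The CDC45 call in SCC15 was lost without any of 4 libraries. The genes of the GINS complex, the third part of the active helicase, were not all called in either line on the deposited scale. GINS3 and GINS4 fell in both lines, by 0.66 and 0.80 log2 units in SCC25 and by 0.79 and 0.86 in SCC15. GINS2 was lower in SCC25 with a change of -1.08, and its SCC15 change of -0.38 ± 0.18 did not pass (limma adjusted p = 0.101). That gene was called lower in SCC15 with edgeR, at -0.43, and with equal library totals, at -0.88.

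GINS1 (chr20:25407727-25452628) fell in SCC15 and did not pass in SCC25. Its SCC15 libraries held 673, 703 and 683 normalized counts with DMSO and 301, 378 and 406 with squamocin, a change of -0.93 ± 0.12 log2 units (limma adjusted p = 0.000644). In SCC25 the values were 729, 712 and 776 with DMSO and 717, 917 and 641 with squamocin, a change of 0.021 ± 0.11 (limma adjusted p = 0.861). The SCC25 groups overlapped, and the difference between the lines of -0.95 ± 0.18 passed its own test (limma adjusted p = 0.000816). Reads of GINS2 may include some of GSE1, which overlaps it.

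Of the 8 origin factors, 4 were lower in SCC25, ORC1, ORC6, CDC6 and CDT1, beside 38.5% of all genes. There, 2 were higher, ORC2 and ORC4, beside 38.3%. In SCC15, 2 were lower and 2 higher, beside 30% and 30.9% of all genes. ORC1 (chr1:52372829-52404459), the subunit whose level varies with the cell cycle, had 389, 393 and 428 normalized counts with DMSO and 139, 161 and 142 with squamocin in SCC25, a change of -1.45 ± 0.096 log2 units (limma adjusted p = 2.36e-08). For SCC15 the values were 418, 467 and 521 with DMSO and 381, 392 and 370 with squamocin, and the change of -0.29 ± 0.11 passed narrowly (limma adjusted p = 0.047) and was lost without any of 4 libraries. CDC6, the loader of the MCM ring, fell by 0.97 ± 0.053 log2 units in SCC25, and its SCC15 change of 0.21 ± 0.095 did not pass. ORC6 fell by 0.41 in SCC25, and changed by 0.011 ± 0.12 in SCC15, which did not pass and turned to -0.49 with equal library totals.

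CDT1 (chr16:88803213-88809258), which brings the MCM ring to the origin and is destroyed in S phase, was called in opposite directions. In SCC25 it had 1927, 1992 and 1984 normalized counts with DMSO and 1032, 905 and 1018 with squamocin, a change of -0.9998 ± 0.057 log2 units (limma adjusted p = 6.24e-09). Libraries of SCC15 held 1048, 1082 and 993 with DMSO and 1539, 1685 and 2113 with squamocin, a change of 0.76 ± 0.13 (limma adjusted p = 0.00164). No squamocin library overlapped a DMSO library in either line, and the SCC15 rise stayed called, at 0.26, with equal library totals.

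ORC2 (chr2:200908973-200963680) moved the other way, lower in SCC15 and higher in SCC25. The SCC15 libraries held 574, 586 and 549 normalized counts with DMSO and 396, 443 and 509 with squamocin, a change of -0.35 ± 0.11 log2 units (limma adjusted p = 0.0291). The SCC25 libraries held 638, 630 and 687 with DMSO and 780, 813 and 803 with squamocin, a change of 0.29 ± 0.060 (limma adjusted p = 0.000637). Neither call was firm: the SCC15 call was lost without any of 5 libraries, and the SCC25 change was 0.086 and not called with equal library totals. ORC4 was higher by 0.48 in SCC25 and by 0.32 in SCC15. The SCC15 call was lost without any of 4 libraries, without the filter on low values, with TMM factors (another scaling) and with edgeR, and scaling to equal totals turned the value to -0.18. Reads of ORC4 may include some of MBD5 and ACVR2A. ORC3 and ORC5 passed in neither line on the deposited scale. The SCC15 change of ORC5 was -0.34 ± 0.14 (limma adjusted p = 0.0686), and every squamocin library lay below every DMSO library. It was called lower there with edgeR, at -0.40, and with equal library totals, at -0.83.

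Of the 9 genes of the polymerases and primase, 8 were lower in SCC25, beside 38.5% of all genes, and POLA2 was higher. In SCC15, 4 of the 9 were lower, beside 30% of all genes, and POLA2 and POLD2 were higher. PRIM1 (chr12:56731596-56752373), the catalytic subunit of primase, which starts each new strand, fell most in both lines. It had 455, 470 and 436 normalized counts with DMSO and 89.0, 113 and 149 with squamocin in SCC25, a change of -1.98 ± 0.15 log2 units (limma adjusted p = 9.28e-08). The SCC15 libraries held 176, 210 and 244 with DMSO and 74.2, 83.2 and 99.5 with squamocin, a change of -1.28 ± 0.17 (limma adjusted p = 0.00068). The groups were apart in both lines, and reads of PRIM1 may include some of NACA or HSD17B6, which overlap it. PRIM2, its partner, fell less, by 0.54 in SCC25 and 0.39 in SCC15, and the SCC15 call was lost without any of 4 libraries.

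POLA1 and POLA2, the catalytic and the regulatory subunit of polymerase alpha, moved in opposite directions. POLA1 was lower in both lines, with changes of -0.65 ± 0.071 in SCC25 and -0.75 ± 0.12 log2 units in SCC15. Its reads may include some of EEF1B2P3, which overlaps it on the other strand. POLA2 (chr11:65261762-65305589) had 382, 416 and 443 normalized counts with DMSO and 937, 1064 and 860 with squamocin in SCC25, a change of 1.20 ± 0.085 (limma adjusted p = 4.39e-08), the largest rise of the 43 genes. SCC15 libraries had 260, 217 and 260 with DMSO and 309, 313 and 348 with squamocin, a change of 0.40 ± 0.12 (limma adjusted p = 0.0202) that turned to -0.096 with equal library totals. The SCC25 rise stayed called, at 0.99, with equal library totals.

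POLD1 (chr19:50384204-50418016), the catalytic subunit of polymerase delta, which copies the lagging strand, fell in SCC25 and was not called in SCC15. Its SCC25 libraries held 1846, 1947 and 1949 normalized counts with DMSO and 525, 449 and 534 with squamocin, a change of -1.93 ± 0.069 log2 units (limma adjusted p = 9e-11). The SCC15 libraries held 1368, 1248 and 1327 with DMSO and 1284, 1296 and 1195 with squamocin, and the change of -0.063 ± 0.083 did not pass (limma adjusted p = 0.533). The SCC15 groups overlapped on this scale, and with equal library totals the change was -0.56 and called lower.

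POLD2 (chr7:44114681-44124358), a smaller subunit of the same enzyme, was called in opposite directions. It had 1442, 1465 and 1457 normalized counts with DMSO and 2458, 2597 and 3097 with squamocin in SCC15, a change of 0.89 ± 0.10 log2 units (limma adjusted p = 0.000339), the largest rise in that line. In SCC25 it had 4411, 4645 and 4636 with DMSO and 3697, 3749 and 4037 with squamocin, a change of -0.25 ± 0.045 (limma adjusted p = 0.000225). The groups did not overlap in either line. POLD3 was lower in both lines, with -0.41 in SCC25 and -0.27 in SCC15, a call that was lost without any of 5 libraries.

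POLE, the catalytic subunit of the leading strand polymerase, fell by 1.49 ± 0.065 log2 units in SCC25. Its SCC15 libraries held 2188, 2125 and 2183 normalized counts with DMSO and 1830, 1745 and 1054 with squamocin, all lower, but the change of -0.53 ± 0.20 did not pass (limma adjusted p = 0.0508), and the third squamocin library was far below the other two. POLE2 fell by 1.02 in SCC25 and changed by -0.065 ± 0.12 in SCC15, which did not pass.

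PCNA is the clamp that tethers the polymerases to DNA, and RFC1 to RFC5 load it. They were lower in SCC25 for 5 of the 6 genes, beside 38.5% of all genes, and in SCC15 only RFC4 passed, as higher, beside 30.9% of all genes higher and 30% lower. PCNA (chr20:5114953-5126626) had 2969, 2858 and 3003 normalized counts with DMSO and 1547, 1701 and 1290 with squamocin in SCC25, a change of -0.97 ± 0.080 log2 units (limma adjusted p = 1.96e-07). For SCC15 the values were 2384, 2525 and 2546 with DMSO and 1530, 1766 and 2569 with squamocin, a change of -0.38 ± 0.18 (limma adjusted p = 0.101). The third squamocin library of SCC15 lay above every DMSO library, and the other two lay below them.

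RFC4 (chr3:186789880-186807058) was called in opposite directions. Libraries of SCC15 held 942, 1002 and 915 normalized counts with DMSO and 1272, 1351 and 1890 with squamocin, a change of 0.64 ± 0.15 log2 units (limma adjusted p = 0.00848), which was 0.14 and not called with equal library totals. In SCC25 it had 909, 885 and 959 with DMSO and 816, 762 and 721 with squamocin, a change of -0.26 ± 0.063 (limma adjusted p = 0.00222). The groups were apart in both lines, and its reads may include some of EIF4A2, which overlaps it. RFC2, RFC5 and RFC1 fell in SCC25 by 0.91, 0.65 and 0.39, and RFC3 was higher there by 0.34, or 0.14 and not called with equal library totals. In SCC15 these 4 ranged from -0.091 for RFC5 to 0.18 for RFC1, and none passed. RFC5 overlaps WSB2 on the other strand, so some of its reads may belong to that gene.

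FEN1 (chr11:61792637-61797244), the nuclease that trims the flap left by each primer, fell in both lines. It had 1886, 1774 and 1762 normalized counts with DMSO and 555, 698 and 523 with squamocin in SCC25, a change of -1.62 ± 0.089 log2 units (limma adjusted p = 4.31e-09). The SCC15 libraries held 1271, 1288 and 1287 with DMSO and 391, 402 and 651 with squamocin, a change of -1.45 ± 0.19 (limma adjusted p = 0.000584), the largest fall of the 43 genes in that line. The difference between the lines was 0.17 ± 0.23 and did not pass (limma adjusted p = 0.57). Reads of FEN1 may include some of FADS2 or TMEM258. LIG1, the ligase that seals the fragments, fell by 1.20 in SCC25 and by 0.25 in SCC15, where the call was lost without any of 4 libraries.

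RPA1 to RPA3 encode the complex that coats single strands. RPA1 was lower in both lines, by 1.07 in SCC25 and 0.30 in SCC15, where the call was lost without any of the 3 DMSO libraries, and RPA2 was lower in SCC25 by 0.38, while its SCC15 change of 0.21 ± 0.14 did not pass. RPA3 was higher in SCC25 with a change of 0.23, which was 0.017 and not called with equal library totals, and its SCC15 change of 0.15 ± 0.25 did not pass. RPA1 overlaps SMYD4 and RPA3 overlaps UMAD1, so some of their reads may belong to those genes.

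In nucleotide supply, TYMS (chr18:657604-673578), which makes thymidylate, had 427, 458 and 436 normalized counts with DMSO and 198, 184 and 167 with squamocin in SCC25, a change of -1.26 ± 0.090 log2 units (limma adjusted p = 5.02e-08). SCC15 libraries had 655, 591 and 611 with DMSO and 432, 507 and 557 with squamocin, a change of -0.32 ± 0.12 (limma adjusted p = 0.0455) that was lost without any of 5 libraries. The groups did not overlap in either line, and reads of TYMS may include some of ENOSF1 on the other strand. The subunits of ribonucleotide reductase parted: RRM1 fell by 0.56 ± 0.062 in SCC25, while RRM2, the subunit that limits the enzyme, changed there by 0.14 ± 0.085 and did not pass (limma adjusted p = 0.151). In SCC15 neither passed, with -0.080 ± 0.13 for RRM1 and 0.064 ± 0.14 for RRM2.

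**Figure D3:**
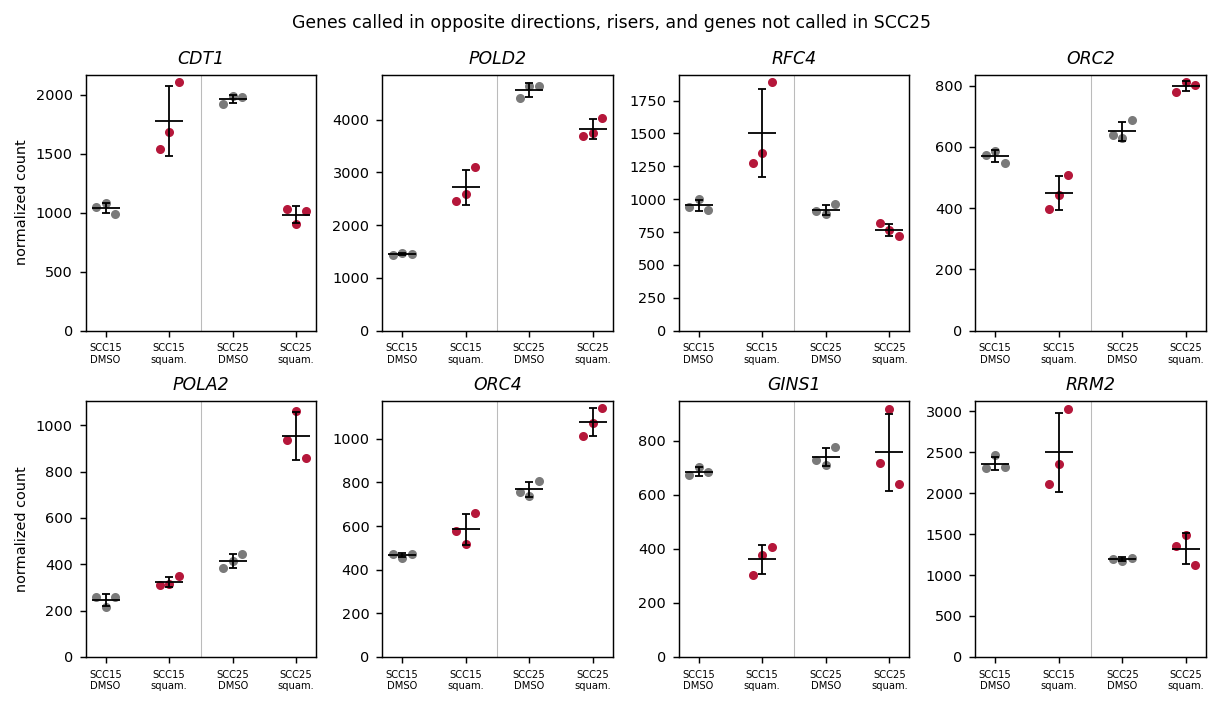
Normalized counts (vertical axes, from 0) in each of the 12 libraries for the 4 genes called in opposite directions, CDT1, POLD2, RFC4 and ORC2, for POLA2 and ORC4, and for GINS1 and RRM2, which were not called in SCC25; points are libraries, and the black dash and bar are the mean and SD of 3. CDT1, POLD2 and RFC4 go up in SCC15 and down in SCC25, and ORC2 the reverse. With equal library totals RFC4 in SCC15 and ORC2 in SCC25 are not called. POLA2 and ORC4 in SCC15 then turn to -0.096 and -0.18 and are not called.

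The responses of the 2 lines were compared by the contrast of both changes, over 14454 genes tested in both. Of the 43 genes, 32 differed (limma, adjusted p below 0.05), beside 52.2% of all genes. The SCC15 change lay above the SCC25 change for 28 of them, beside 26.1% of all genes, and below it for 4, ORC2, ORC5, GINS1 and POLA2, beside 26%. The median difference was 0.66 log2 units, against 0.012 for all genes on the deposited scale. With equal library totals it was 0.37, on a scale where the median of all genes changed by -0.50 in SCC15 and -0.23 in SCC25. The 5 largest differences were 2.64 ± 0.17 (SE) for MCM2, 2.18 ± 0.091 for MCM5, 1.98 ± 0.082 for MCM3, 1.87 ± 0.11 for POLD1 and 1.80 ± 0.11 for MCM7, each with a limma adjusted p of at most 1.57e-07. For the genes called in opposite directions it was 1.76 ± 0.14 for CDT1, 1.15 ± 0.12 for POLD2, 0.90 ± 0.17 for RFC4 and -0.64 ± 0.13 for ORC2. Joined over both lines, 18 genes were lower in both, beside 18.6% of all genes, 2 were higher in both, beside 22.1%, and 4 were called in opposite directions, beside 10.1%. A further 13 were lower in SCC25 and not called in SCC15, RFC3 and RPA3 were higher in SCC25 and not called in SCC15, GINS1 was lower in SCC15 and not called in SCC25, and ORC3, ORC5 and RRM2 were called in neither.

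The 11 genes whose difference did not pass included genes that fell in both lines, GINS3, GINS4, POLA1, PRIM2, POLD3 and FEN1, with differences between -0.12 and 0.17 log2 units and standard errors between 0.12 and 0.23. ORC3, ORC4, RFC3, RPA3 and RRM2 made up the rest. A test that missed its threshold at these errors does not show equal responses.

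A second list of 40 genes around the same process, from origin firing regulators to chromatin assembly factors, was tested whole in both lines. In SCC25, 15 were lower and 14 higher, beside 38.5% and 38.3% of all genes, with a median of 0.027 log2 units against -0.015 for all genes. In SCC15, 17 were lower and 9 higher, beside 30% and 30.9%, with a median of -0.098 against 0.012. Both lines shared 12 lower genes of this list, beside 18.6% of all genes, and 9 higher, beside 22.1%. The largest falls in SCC25 were those of CHTF8, a part of the clamp loader for cohesion, with -1.87 ± 0.055, CHAF1A, the large subunit of chromatin assembly factor 1, with -1.85 ± 0.050, and SAMHD1, which degrades deoxynucleotides, with -1.38 ± 0.065. In SCC15 they were those of SAMHD1 with -2.01 ± 0.084 and CHTF8 with -1.48 ± 0.099. The largest rises in SCC25 were those of the nucleotide kinases CMPK1 and DCK, with 1.18 ± 0.053 and 1.09 ± 0.062, and POLE4, a small subunit of polymerase epsilon, with 1.06 ± 0.058. In SCC15 they were those of POLD4, a small subunit of polymerase delta, with 1.53 ± 0.16, POLE4 with 1.22 ± 0.26 and CMPK1 with 0.95 ± 0.13. All of these values passed (limma, adjusted p at most 0.00482) and stayed called with equal library totals. Reads of CHTF8 may include some of UTP4 or HAS3, and those of CHAF1A some of UBXN6. Likewise, reads of DCK may include some of MOB1B, and those of POLD4 some of RAD9A.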

How the data were processed

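Total RNA of 12 libraries was prepared with a NEBNext Ultra kit, and per the labels reads were aligned to GRCh38 with HISAT2 2.0.5 and counted per gene with featureCounts 1.5.0-p3 by the authors. Strand use was not given in the sources used here, so overlapping genes cannot be told apart. The deposited values, 1 table per cell line, behaved as a signal of gene counts divided by a size factor per library: 100% of values gave whole reads within 0.01. This held for the SCC25 columns too, although their headers, unlike those of SCC15, read fpkm, a measure scaled by gene length. Tables also hold the authors' group means, fold changes and p-values, which were not used. Samples were grouped by cell line and treatment in the labels.

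Genes with a mean of at least 10 normalized counts were tested on log2(value + 1) with limma 3.58.1 (R 4.3.3, two-sided, trend), Benjamini-Hochberg over all genes tested, threshold 0.05. A fold change on this scale understates the change of low genes. Fold changes between lines came from 1 limma contrast over all 12 libraries, each table scaled separately. Alternatives were edgeR 4.0.16 and DESeq2 1.42.0 on recovered reads, other pseudocounts, filters, scalings, a replicate block and leaving out each library. Scripts were tested on simulated data. Levels per kilobase used the Ensembl canonical transcript of GENCODE release 44. Members, lists and tests were chosen with earlier results of these data known. Full values were given for the gene with the largest called change of each role in each line, genes called in opposite directions and the 5 largest differences, with the 3 largest rises and falls among other replication genes, of which 1 is not reported here. POLA2, ORC4, POLE and RRM2, and the printed promoters, were added after their values were seen.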

Additional observations from a re-analysis of the deposited data

Results flagged for a closer look

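These genes were listed because the response to squamocin differed between SCC15 and SCC25 by the test of the difference itself (limma contrast, adjusted p below 0.05 over 14454 genes), which 52.2% of all genes passed. The values are the SCC15 change minus the SCC25 change in log2 units. In the helicase they were 2.64 for MCM2, 2.18 for MCM5, 1.98 for MCM3, 1.80 for MCM7, 1.77 for MCM6, 1.29 for MCM4, 1.05 for CDC45, 0.70 for GINS2 and 0.66 for MCM10. In origin recognition and licensing they were 1.76 for CDT1, 1.18 for CDC6, 1.156 for ORC1 and 0.42 for ORC6. Among the polymerases and primase they were 1.87 for POLD1, 1.15 for POLD2, 0.96 for POLE, 0.95 for POLE2 and 0.69 for PRIM1. The clamp and its loader gave 1.00 for RFC2, 0.90 for RFC4, 0.59 for PCNA, 0.57 for RFC1 and 0.56 for RFC5. Single-strand binding and strand joining gave 0.95 for LIG1, 0.77 for RPA1 and 0.60 for RPA2, and nucleotide supply gave 0.95 for TYMS and 0.48 for RRM1. Differences below 0 were -0.95 for GINS1, -0.80 for POLA2, -0.64 for ORC2 and -0.50 for ORC5. Leaving out each of the 12 libraries in turn, 28 of the 32 passed every time, and ORC5, GINS2, PRIM1 and PCNA did not. With equal library totals ORC6, MCM10, GINS2, PRIM1, POLE, PCNA, RFC1, RFC5 and RRM1 did not pass. Groups of 3 libraries were too small for a test of single outlying libraries.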

How the results depend on the processing

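Without the filter on low values, with a stricter filter that asked every library for 10 or more, with a pseudocount of 0.1 or 10, with TMM factors, with edgeR or DESeq2 on the recovered reads, or with protein-coding genes alone, the counts of genes called and the medians stayed within 1.5 times or within the spread of the main values. In SCC25 the 34 lower genes stayed called under all alternatives other than the threshold on size. Equal library totals gave 36 lower and 2 higher genes and a median of -0.79 in SCC15, 2 higher genes and a median of -1.12 in SCC25, and a median difference of 0.37. Requiring a change above 1 log2 unit left 2 lower and 0 higher genes in SCC15, 18 lower and 1 higher in SCC25, and 13 differences between the lines. Deviations of libraries with the same replicate number correlated by -0.0511 to 0.0078, and those with different numbers by -0.0401 to 0.0495. No pairing was visible in these values, which does not show that the libraries were handled apart. With the replicate block, 13 genes were lower in SCC15 and 4 higher, 34 and 5 in SCC25, and 32 differed. Leaving out 1 library at a time gave 11 to 26 lower and 3 to 7 higher genes in SCC15 with medians from -0.29 to -0.22, 34 lower and 5 to 6 higher in SCC25 with medians from -0.92 to -0.86, and 29 to 35 differences with medians from 0.58 to 0.75. The lowest SCC15 counts came without the second DMSO library and the highest without the third squamocin library. With 1 library left out, the group of 2 shared the spread of the other libraries.

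Signs of single genes turned mostly where the change was small. With equal library totals the SCC15 change was -0.32 for ORC3, -0.18 for ORC4, -0.49 for ORC6, -0.29 for CDC6, -0.096 for POLA2, -0.32 for RFC1, -0.40 for RFC2, -0.34 for RFC3, -0.28 for RPA2, -0.34 for RPA3 and -0.43 for RRM2. The SCC25 change was -0.19 for ORC3, -0.040 for ORC5, -0.19 for GINS1 and -0.068 for RRM2, and the difference between the lines was -0.13 for ORC3, -0.13 for PRIM2, -0.15 for POLD3 and -0.12 for FEN1. ORC6 in SCC15 was -0.032 with TMM factors, -0.052 with edgeR and -0.00079 with DESeq2. Leaving out 1 library turned signs within these ranges in SCC15: RRM1 -0.21 to 0.020, ORC6 -0.093 to 0.12, RFC2 -0.11 to 0.24, RPA3 -0.17 to 0.38, RRM2 -0.085 to 0.18 and POLE2 -0.14 to 0.0047. In SCC25 they were -0.015 to 0.081 for ORC3 and -0.12 to 0.13 for GINS1. For the differences they were -0.39 to 0.16 for RPA3, -0.22 to 0.038 for RRM2, -0.11 to 0.028 for GINS4 and -0.071 to 0.30 for FEN1. On the deposited scale none of these genes was called in the comparison named, other than POLA2 and ORC4 in SCC15. With equal library totals the turned values of ORC3, ORC6, CDC6, RFC2, RFC3, RPA2 and RRM2 in SCC15 and of ORC3 in SCC25 were called lower. Equal totals lower every gene of a line by nearly the same amount, and the cause of the other turns was not tested.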

Other observations

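Within the squamocin group of SCC15, the third library departed from the other two in both directions among the replication genes. It had the highest value of the group for PCNA (2569 against 1530 and 1766 normalized counts), RPA3 (840 against 393 and 477), FEN1 (651 against 391 and 402) and RRM2 (3032 against 2106 and 2353). It had the lowest for POLE (1054 against 1830 and 1745) and MCM2 (1017 against 1405 and 1499). These genes were named after their values were seen. Without that library 26 genes were lower and 7 higher in SCC15.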
